A study of Mus musculus with 12 samples.

Results

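The amino acid and neurotransmitter transporters examined here are the carriers of the Slc1, Slc3, Slc6, Slc7, Slc36, Slc38 and Slc43 families. They were taken by symbol from the gene names of both deposited expression tables, and genes whose symbol ends in os, the mark of an opposite-strand transcript, were left out. This gave 48 genes of the 17505 named in either table. Of these, 46 were listed with the muscle stem cells (MuSCs) and myoblasts, 42 with the WT and Nedd4L-cKO MuSCs, and 40 in both tables. Slc3a1, Slc6a3, Slc6a5, Slc6a11, Slc6a17 and Slc6a19 were only in the first and Slc7a10 and Slc7a13 only in the second. The filter on low values left 42 and 41 to be tested, and removed Slc1a2, Slc6a3, Slc6a5 and Slc6a15 from the first comparison and Slc7a13 from the second. All 48 are annotated as protein-coding genes.

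MuSCs are the resident stem cells of skeletal muscle, and the study asked how the E3 ubiquitin ligase Nedd4L bears on their quiescence. Freshly sorted WT MuSCs of 3 mice were compared with primary myoblasts grown from cells of the same mice for 3 days in Ham's F10 with fetal bovine serum and bFGF. MuSCs of 3 Nedd4L WT mice were compared with MuSCs of 3 Nedd4L-cKO mice, all males of 5 to 6 weeks, and the 2 comparisons share no library. Every library was made with SMART-Seq HT from 1000 cells sorted as ITGA7+/Hoechst+/CD31-/CD45-/CD11b-/SCA1-, or from 1000 cultured myoblasts. Nedd4L-cKO mice were Nedd4L fl/fl Pax7 cre/+ on a C57BL/6 background, and the alleles of the WT mice are not given in the sources used here. Cre was expressed from the Pax7 locus, so Nedd4L was also deleted in the descendants of these cells, myofibers included. The deletion removes exon 15 and leaves the gene transcribed.

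Amino acid carriers differ in what drives them and in what they carry. The Slc1, Slc6 and many Slc38 carriers use the sodium gradient to load cells with glutamate, neurotransmitters, taurine, creatine or small neutral amino acids. The Slc7 light chains are exchangers that reach the membrane bound to a heavy chain, Slc3a2 or Slc3a1, and let large neutral or cationic amino acids in against the exit of others. Slc36 carriers and several Slc38 carriers sit on lysosomes, where amino acids are sensed by mTORC1, and Slc43 carriers move large neutral amino acids or nucleobases without sodium. Many of these genes are known targets of ATF4, the transcription factor of the amino acid response. The NEDD4L protein is known as a ligase of membrane transporters, several amino acid carriers included, but RNA levels do not measure that.

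The deposited values were counts that the authors had divided by DESeq2's normalization factors, and they summed to between 33189802 and 37595659 per library in the MuSC and myoblast table and between 40323468 and 50687122 in the genotype table. The read depth behind them is unknown. Levels are given as RPM, the normalized count divided by the mean of the 6 library totals of its table and scaled so that 1 RPM equals 35.24 normalized counts in the first table and 43.62 in the second. RPM of different genes were compared only per kb of exonic length. A gene was tested with limma on log2(RPM + 1) where 3 or more of the 6 libraries held 10 normalized counts or over, and it was called at a Benjamini-Hochberg adjusted p of at most 0.05 over all genes tested. Fold changes are on that scale and understate the change of genes near 0.

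Nedd4l itself had levels of 70.2, 96.4 and 66.7 RPM with the WT genotype and 30.2, 36.3 and 22.5 RPM after deletion of Nedd4L (log2 fold change -1.37 ± 0.28 (SE), limma adjusted p = 0.0467). All 8 MuSC markers fixed for the check, such as Pax7 and Calcr, were listed, and they summed to between 3039 and 4918 RPM in the 9 MuSC libraries of both tables and to between 501 and 652 RPM in the myoblasts. Myofiber markers summed to between 8992 and 20602 RPM in the myoblasts against 357 to 538 RPM in the MuSCs of the same mice, and 6 of the 8 rose. Endothelial markers summed to between 38.8 and 103 RPM in the MuSC libraries of both tables. Of the 6 fixed, Cldn5, Emcn and Kdr were listed in neither table. Cdh5 was not listed in the genotype table, where the sum is of Tek and Pecam1 only. Fibro-adipogenic markers summed to between 47.4 and 161 RPM in the MuSCs of the first table and between 4.36 and 6.84 RPM in the myoblasts, and in the genotype table to between 246 and 1632 RPM in WT and between 372 and 2365 RPM in Nedd4L-cKO MuSCs. Dcn, at 193 to 2208 RPM, gave most of the fibro-adipogenic sum in the genotype table. Pdgfra, Ly6a and Pi16 of the same list were each at most 2.8 RPM there. In a library made from pooled cells, fewer cells of a type and less RNA per cell cannot be told apart.

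The transporter RNA of freshly isolated MuSCs was dominated by a pair of genes. Slc38a2, a sodium-coupled carrier of alanine, glutamine and other small neutral amino acids, had the highest level per kb in WT MuSCs, at 218 ± 100 RPM per kb (SD, n = 3). Slc43a3, known as a purine nucleobase carrier, followed at 201 ± 17.3 RPM per kb, which did not differ from Slc38a2 beyond the spread between mice. Slc3a2, the heavy chain of CD98, was at 42.4 ± 3.36, Slc43a1 at 16.4 ± 5.43 and the little studied Slc38a6 at 12.2 ± 3.49 RPM per kb. Slc38a2 made up 47.5%, 30.9% and 34.9% of the summed level per kb of all listed transporters in the 3 MuSC libraries, and Slc43a3 between 28.6% and 43.1%.

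In myoblasts the order was another. Slc3a2 led at 80.9 ± 14.7 RPM per kb (SD, n = 3), ahead of Slc7a5, its large neutral amino acid light chain, at 35.6 ± 13. The taurine carrier Slc6a6, at 35.4 ± 11.7, was level with Slc7a5, and Slc1a5, an exchanger of glutamine and other neutral amino acids, followed at 27.5 ± 13, which did not differ from either beyond the spread. Slc38a2 was down to 25.3 ± 4.63 RPM per kb, from 6.62% to 9.80% of the sum, and Slc43a3 to between 2.10% and 4.62%. The summed level of the transporters was 702, 507 and 469 RPM per kb in the MuSCs and 301, 281 and 293 RPM per kb in the myoblasts, so that the groups did not overlap. The lower myoblast sum rested on Slc38a2 and Slc43a3. The other transporters together had a higher sum in every myoblast library than in any MuSC library.

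**Figure D1:**
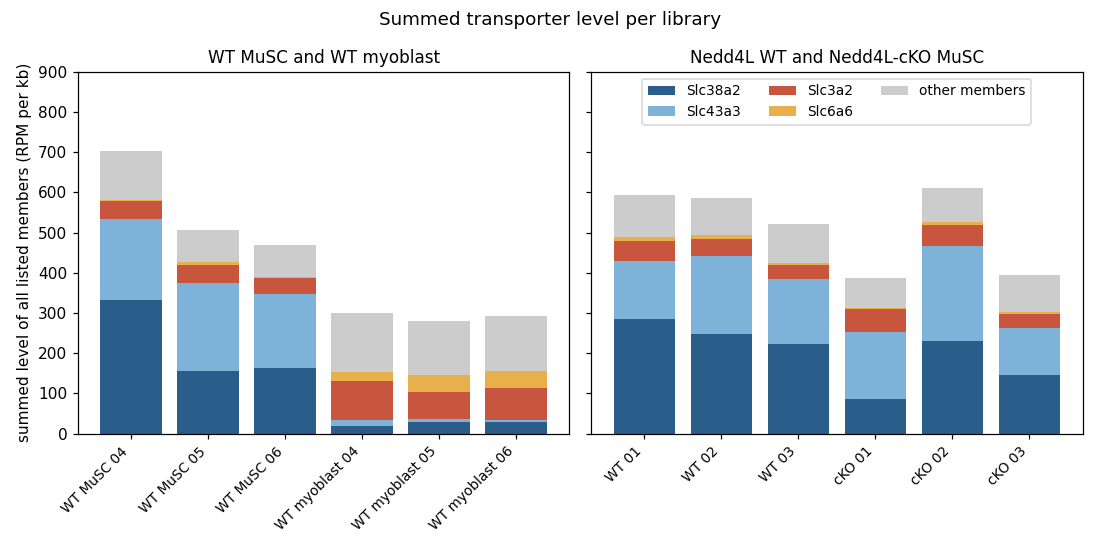
Summed level of all listed transporters in each library, in RPM per kb of exonic length, with Slc38a2, Slc43a3, Slc3a2 and Slc6a6 shown apart. The 3 WT myoblast bars reach 281 to 301 RPM per kb, under the 469 to 702 RPM per kb of the WT MuSC bars, and the blue sections of Slc38a2 and Slc43a3 are small in them. The sections above the blue ones are together taller in the myoblast bars than in the WT MuSC bars beside them.

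Of the 42 transporters tested between myoblasts and MuSCs, 23 were called (54.8%), 14 higher and 9 lower in myoblasts. Over all genes tested, 42.8% were called, 22.2% higher and 20.6% lower. Slc6a17 and Slc6a19, both called higher, and the uncalled Slc6a18 passed the filter only through their myoblast libraries. Their direction and lack of overlap were thus nearly set by the filter. With 10 normalized counts required in all 6 libraries, 17 of 31 transporters were called, 10 higher and 7 lower, against 43.5% of all genes. The median log2 fold change was 0.16 over the transporters and 0.04 over all genes. Myoblast and MuSC libraries did not overlap for 26 of the 42, 14 of them higher and 12 lower, against 55.2% of all genes tested, 28.4% higher and 26.8% lower. At an unadjusted p under 0.05 there were also 26 of 42, against 51.5% of all genes. Among the 25 transporters with a mean of at least 5 RPM, 19 were called (76.0%), against 47.3% of the genes at that level. Set out by role, the sodium-coupled Slc38 carriers of the plasma membrane and the Slc43 carriers were lower. The Slc1 exchangers, most heteromeric carriers and the taurine and creatine carriers were higher. The roles were chosen with earlier results of these data known, so this split is a description and not a test.

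**Figure D2:**
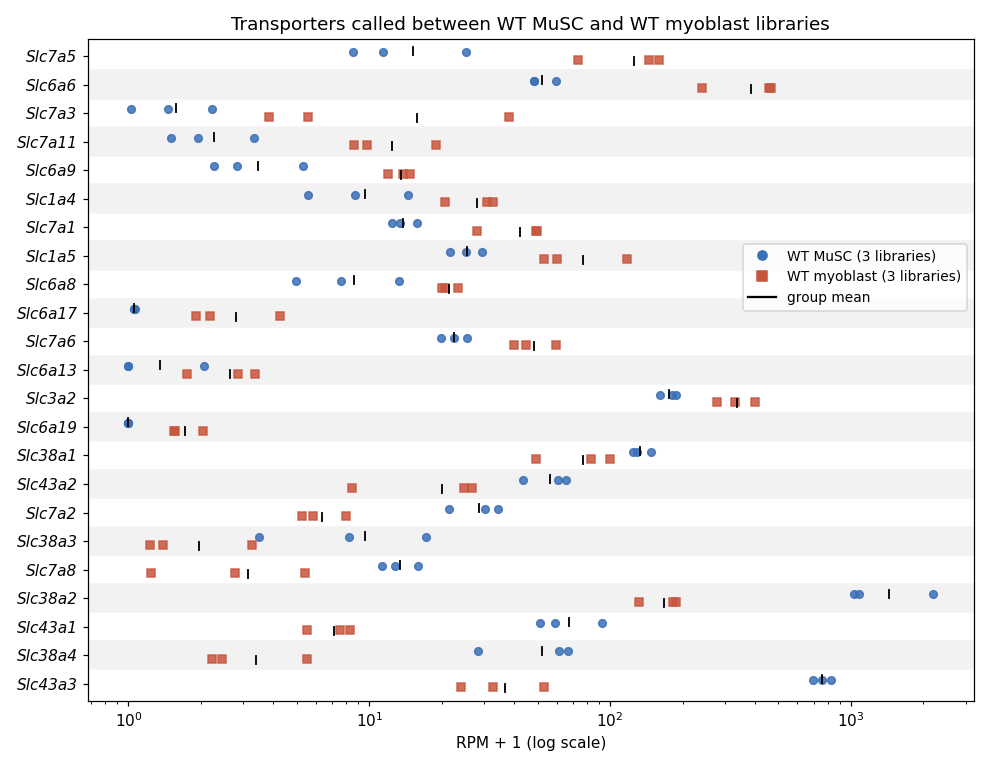
Levels of the 23 called transporters in each WT MuSC library (blue circles) and WT myoblast library (red squares), as RPM + 1 on a log scale, with group means as black ticks, ordered by log2 fold change. Slc7a5, at the top, runs from 7.59 to 24.3 RPM in MuSCs and from 72.9 to 159 RPM in myoblasts, and Slc43a3, at the bottom, from 692 to 823 and from 23.1 to 52.4 RPM.

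All 4 sodium-coupled neutral carriers of the plasma membrane fell in myoblasts, with a median log2 fold change of -2.59. Slc38a2 was at 2198, 1034 and 1079 RPM in the MuSCs of mice 04, 05 and 06 and at 131, 182 and 187 RPM in their myoblasts, which was 8.63-fold lower (log2 fold change -3.03 ± 0.30 (SE), limma adjusted p = 9.07e-05). MuSC library 04 was about as far above the other 2 as these were above 0, and the groups did not overlap. Slc38a4, a carrier of small neutral amino acids, had 66.0, 60.2 and 27.3 RPM in MuSCs and 4.50, 1.23 and 1.45 RPM in myoblasts (log2 fold change -3.97 ± 0.47). Slc38a3, which carries glutamine, histidine and asparagine, was low in every library, with 16.2, 2.50 and 7.22 RPM against 2.25, 0.392 and 0.224 RPM (-2.16 ± 0.60, limma adjusted p = 0.0188). Its call was lost without MuSC 06, myoblast 05 or myoblast 06 (adjusted p = 0.0513, 0.0603 and 0.0572).

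Slc38a1, the remaining carrier of this role, takes up glutamine with sodium. Its level was 147, 128 and 123 RPM in MuSCs and 48.3, 98.6 and 82.0 RPM in myoblasts. The groups did not overlap, and the fall was the smallest of the 4 (log2 fold change -0.84 ± 0.27, limma adjusted p = 0.0324). It missed the threshold with the mouse as a block (adjusted p = 0.0513), with each library scaled to its own total (0.0642), and without MuSC 04, 05 or 06 (0.0872, 0.0773 and 0.0651). Without myoblast 04, its lowest library, the log2 fold change was -0.55. Slc38a1, Slc38a2 and Slc38a4 lie near each other on the minus strand of chromosome 15. Their positions are chr15:96469298-96541851, chr15:96585266-96597894 and chr15:96892693-96958593 (GRCm39). Of the exonic bases of Slc38a1, 14.0% are shared with other annotated genes.

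The other Slc38 genes did not follow them, and none of 5 tested was called, although all 5 had log2 fold changes above 0. They include Slc38a7 and Slc38a9 of the lysosome and the little studied Slc38a6, Slc38a10 and Slc38a11. Slc38a6 was at 181, 116 and 111 RPM in MuSCs and at 187, 130 and 143 RPM in myoblasts, which overlapped. Slc38a9, a lysosomal arginine sensor of mTORC1, was at 24.1, 19.5 and 17.5 RPM and at 13.5, 24.5 and 33 RPM. Slc38a7, which exports glutamine from lysosomes, was at 4.40, 6.10 and 3.74 RPM in MuSCs and at 4.89, 19.3 and 19.3 RPM in myoblasts, with library 04 within the range of the MuSCs. Without myoblast 04 it was called higher. Slc38a10 was at 41.8, 30.1 and 20.1 RPM in MuSCs and at 57.4, 54.3 and 40.8 RPM in myoblasts (0.76 ± 0.30, limma adjusted p = 0.0683). It was called higher with each library scaled to its own total and without MuSC 04.

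All 3 Slc43 carriers fell, with a median log2 fold change of -3.22. Slc43a3 had 756, 823 and 692 RPM in MuSCs and 52.4, 31.6 and 23.1 RPM in myoblasts, which was 21.2-fold lower (log2 fold change -4.44 ± 0.28, limma adjusted p = 8.57e-06) and, with Slc38a4 (21.4-fold), among the 2 largest falls. The order of these 2 depends on the pseudocount, since with 0.1 in place of 1 the log2 fold change was -4.48 for Slc43a3 and -4.50 for Slc38a4. Slc43a1, a facilitative carrier of branched-chain and aromatic amino acids, had 91.8, 58.0 and 50.2 RPM in MuSCs and 7.34, 6.57 and 4.53 RPM in myoblasts (-3.22 ± 0.31). It lies near Slc43a3 on chromosome 2, at chr2:84669194-84698315 and chr2:84766862-84788865 (GRCm39, plus strand). Slc43a2, a carrier of the same substrates, was at 59.6, 42.5 and 64.6 RPM against 7.46, 25.8 and 23.7 RPM (-1.65 ± 0.43, limma adjusted p = 0.0145). Its call was lost without MuSC 06 (adjusted p = 0.0541), and 19.3% of its exonic bases are shared with Gm45606.

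Both ASC exchangers, which swap alanine, serine, cysteine and, for Slc1a5, glutamine across the membrane, rose. Slc1a5 went from 28.3, 20.6 and 24.3 RPM to 117, 52.0 and 59.0 RPM, 3.12-fold higher (log2 fold change 1.52 ± 0.32, limma adjusted p = 0.00533). Slc1a4 went from 13.5, 4.57 and 7.71 RPM to 29.7, 31.7 and 19.7 RPM (1.63 ± 0.39). In both genes every myoblast library was above every MuSC library. None of the 3 tested carriers of glutamate and aspartate was called, and Slc1a2, at 3.77 RPM in myoblast 04 and at most 0.972 RPM elsewhere, did not pass the filter. Among them Slc1a3, a glial glutamate carrier, was at 11.3, 5.08 and 5.30 RPM in MuSCs and at 3.84, 3.99 and 3.21 RPM in myoblasts.

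The heavy chain Slc3a2 rose from 179, 187 and 160 RPM to 398, 277 and 329 RPM (log2 fold change 0.92 ± 0.19, limma adjusted p = 0.00483), and 18.0% of its exonic bases are shared with Snhg1. Of the 5 light chains tested, 3 rose and 1 fell. Slc7a5, which brings leucine and other large neutral amino acids into cells, had 24.3, 7.59 and 10.4 RPM in MuSCs and 72.9, 144 and 159 RPM in myoblasts, 8.87-fold higher (3.14 ± 0.44, limma adjusted p = 0.000593). This was the largest log2 fold change of RPM + 1 among the transporters that rose, but genes near 0 rose by more as a ratio of means or with a pseudocount of 0.1, where Slc7a3 had 4.12 and Slc6a17 3.37 against 3.24 for Slc7a5. Slc7a11, the cystine and glutamate exchanger that feeds glutathione synthesis, had 0.948, 0.507 and 2.31 RPM and 17.9, 7.67 and 8.79 RPM, 9.12-fold higher (2.45 ± 0.43). Slc7a6, an exchanger of cationic and neutral amino acids, rose from 24.5, 18.8 and 21.4 RPM to 58.8, 43.8 and 38.8 RPM (1.08 ± 0.25).

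Slc7a8, a light chain for neutral amino acids like Slc7a5 but of broader range, went the other way. It had 15, 11.8 and 10.3 RPM in MuSCs and 0.240, 1.77 and 4.41 RPM in myoblasts (log2 fold change -2.32 ± 0.51, limma adjusted p = 0.00641). Slc7a5 made up 49.1%, 28.6% and 33.3% of the summed light chain level per kb in MuSCs and 62.0%, 81.5% and 83.6% in myoblasts. The level per kb of Slc3a2 was 3.08, 5.98 and 4.35 times that of the summed light chains in MuSCs and 2.88, 1.33 and 1.47 times in myoblasts, so that the lowest MuSC ratio lay just above the highest myoblast ratio.

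Cationic carriers of the Slc7 family moved in both directions. Slc7a2, an arginine and lysine carrier, had 33.2, 29.1 and 20.5 RPM in MuSCs and 7.04, 4.82 and 4.28 RPM in myoblasts, 5.13-fold lower (log2 fold change -2.16 ± 0.32, limma adjusted p = 0.000785). Slc7a1, which carries the same substrates, had 11.4, 14.8 and 12.4 RPM and 27.0, 48.4 and 48.5 RPM, 3.21-fold higher (1.57 ± 0.30, limma adjusted p = 0.00312). Slc7a2 was thus above Slc7a1 in every MuSC library and below it in every myoblast library, also per kb (2.81 ± 0.664 and 1.73 ± 0.23 RPM per kb in MuSCs, 0.549 ± 0.149 and 5.56 ± 1.67 in myoblasts). Slc7a4 and Slc7a14, related genes of uncertain transport function, lay between 1.19 and 10.9 RPM and between 1.53 and 3.52 RPM without a call. Slc7a3, a further cationic carrier, was at 1.23, 0.0285 and 0.459 RPM and at 37.0, 2.84 and 4.54 RPM (2.64 ± 0.77, limma adjusted p = 0.0230). The value of myoblast 04 set the size of this rise, which was 1.62 without it, and the call was lost without MuSC 05 or 06 (adjusted p = 0.0788 and 0.0620).

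The taurine carrier Slc6a6 had 47.2, 58.5 and 47.4 RPM in MuSCs and 239, 465 and 454 RPM in myoblasts, 7.55-fold higher (log2 fold change 2.84 ± 0.27, limma adjusted p = 7.82e-05). The creatine carrier Slc6a8 had 12.3, 3.95 and 6.64 RPM and 19.0, 19.7 and 22.4 RPM (1.42 ± 0.38, limma adjusted p = 0.0160), and its call was lost without MuSC 05 or myoblast 06 (adjusted p = 0.0513 and 0.0523). Taurine and creatine are both held at high levels in muscle fibers. The levels of both carriers rose beside the myofiber markers given above, and the part of differentiating cells in the result was not tested.

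Neurotransmitter carriers were low. Slc6a9, a glycine carrier, rose from 4.32, 1.81 and 1.27 RPM to 12.8, 13.7 and 11 RPM (log2 fold change 2.05 ± 0.38, limma adjusted p = 0.00281), and 34.2% of its exonic bases are shared with Ccdc24 and Gm17114. Slc6a13, a carrier of GABA and taurine, was called at the edge of the threshold with overlapping groups, at 0, 0 and 1.06 RPM against 0.749, 1.85 and 2.35 RPM (1.01 ± 0.36, adjusted p = 0.0480). That call was lost without MuSC 04 or 05 or myoblast 05 or 06 (adjusted p from 0.122 to 0.154). The GABA carrier Slc6a11 and the norepinephrine carrier Slc6a2 were not called. The dopamine carrier Slc6a3 and the glycine carrier Slc6a5 did not pass the filter on low values, and Slc6a3 reached 3.64 RPM only in myoblast 04, the other libraries being at most 0.336 RPM.

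A pair of further rises were of genes near 0. Slc6a17, an amino acid carrier of synaptic vesicles, was at 0.0531 to 0.0670 RPM in MuSCs and at 1.18, 3.26 and 0.905 RPM in myoblasts (log2 fold change 1.30 ± 0.30). Slc6a19, a neutral amino acid carrier of gut and kidney, was listed at 0 in all MuSC libraries and at 0.552, 0.553 and 1.03 RPM in the myoblasts. Both passed the filter only through their myoblast libraries, and were too low to be tested once a myoblast library was left out. Among the remaining Slc6 carriers, Slc6a18 was at 0.122 to 0.258 RPM in MuSCs and 0.333 to 0.712 RPM in myoblasts without a call, Slc6a20b at 1.53 to 4.53 RPM over the 6 libraries, and Slc6a15 did not pass the filter. The proton-coupled Slc36a1 and Slc36a4 were not called and lay at 1.15 to 1.73 and 9.17 to 28.5 RPM over the 6 libraries.

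**Figure D3:**
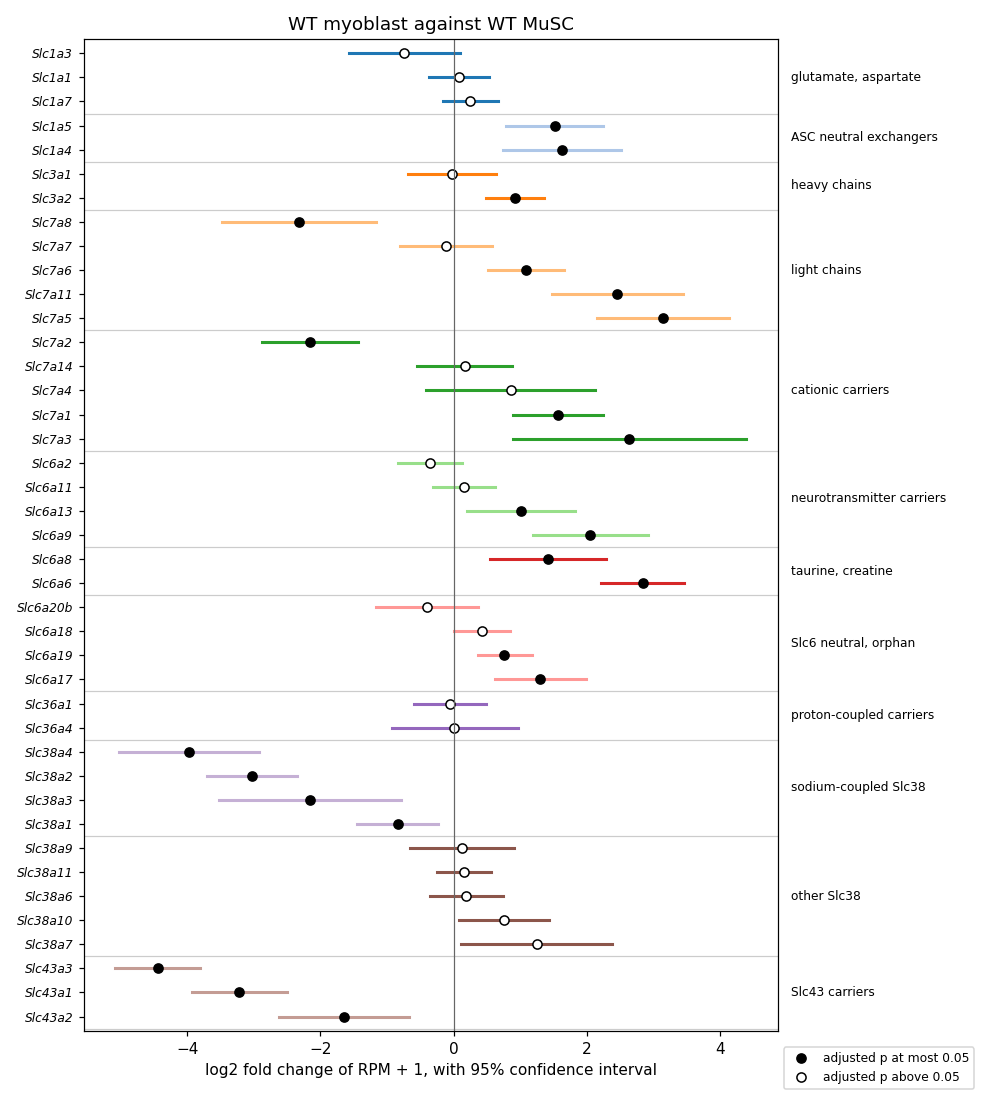
Log2 fold change of RPM + 1 between WT myoblasts and WT MuSCs for the transporters tested and shown here, grouped by role, with 95% confidence intervals as bars; filled points have an adjusted p of at most 0.05. The 4 sodium-coupled Slc38 and 3 Slc43 carriers lie left of 0, and the ASC exchangers and the taurine and creatine carriers right of it.

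Promoters of Slc7a11, Slc1a4 and Slc7a7 carry the letters TGATGNAA, the core of the element through which ATF4 acts. Slc7a11 and Slc1a4 rose in myoblasts, and Slc7a7 was not called. This motif was searched on both strands of the RefSeq promoters (GRCm38.p6, from 250 bases before to 50 after the start), which held 33 of the 48 transporters. It was in a promoter of 3 of these 33 (Slc7a11, Slc1a4 and Slc7a7), and in 4.51% of all 27025 genes with a promoter. A fixed amino acid response list was made up of Atf4 and genes widely known as ATF4 targets. Of its 27 genes with a promoter, 9 held the motif. The stretches below are shown 5′ to 3′ on the strand of the gene, with each match in capitals, beside Asns (asparagine synthetase) and Chac1 (a glutathione-degrading enzyme), which are textbook genes of the response.
Slc7a11, chr3:50443614-50443763, bases -150 to -1 from the start, minus strand: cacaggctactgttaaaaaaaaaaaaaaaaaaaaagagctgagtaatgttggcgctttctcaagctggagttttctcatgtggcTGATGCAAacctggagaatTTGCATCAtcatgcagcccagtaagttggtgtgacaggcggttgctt
Slc1a4, chr11:20332704-20332823, bases -110 to 10 from the start, minus strand: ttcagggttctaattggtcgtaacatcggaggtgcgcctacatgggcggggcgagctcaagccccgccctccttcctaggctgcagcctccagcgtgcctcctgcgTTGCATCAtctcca
Asns, chr6:7693210-7693319, bases -110 to -1 from the start, minus strand: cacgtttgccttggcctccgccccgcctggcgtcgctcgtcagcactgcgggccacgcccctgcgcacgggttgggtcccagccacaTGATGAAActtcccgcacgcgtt
Chac1, chr2:119351022-119351111, bases -220 to -131 from the start, plus strand: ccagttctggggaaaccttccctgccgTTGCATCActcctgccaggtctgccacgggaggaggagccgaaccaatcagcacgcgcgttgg
Slc7a11 held a match on each strand, at bases -66 to -59 and -47 to -40 from its start, and Slc1a4 held its match across the start. A match is a description of letters and not of binding, and Slc7a7 with the same letters was at 4.80, 3.05 and 3.59 RPM in MuSCs and 3.43, 3.48 and 3.37 RPM in myoblasts. The part of ATF4 in these levels was not tested.

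Of the 29 genes of the amino acid response list, none of them a transporter, 15 rose and 5 fell in myoblasts (69.0% called, against 42.8% of all genes tested). The 5 that fell were Atf3 (log2 fold change -3.26 ± 0.30), Cebpb (-2.68 ± 0.35), Cbs (-2.15 ± 0.45), Ddit3 (-1.30 ± 0.27) and Vldlr (-1.16 ± 0.38). Promoters of Atf3 and Vldlr also hold the letters TGATGNAA. Asns went from 0.921, 0 and 3.98 RPM to 360, 421 and 514 RPM (log2 fold change 7.66 ± 0.51, limma adjusted p = 1.10e-05). The hormone gene Fgf21 went from 0, 2.29 and 0.681 RPM to 60.6, 129 and 230 RPM (6.12 ± 0.56), and the pseudokinase Trib3 from 0 in all MuSC libraries to 48.3, 11.2 and 10.6 RPM. Trib3, which counts among the 15, passed the filter only through its myoblast libraries, so its direction and lack of overlap were set by the filter. Atf4 itself was at 137, 107 and 111 RPM and at 113, 92.8 and 100 RPM, and was not called. Of 20 cytosolic aminoacyl-tRNA synthetases, which charge tRNA with the amino acids carried, 12 rose and 2 fell, and Aars, Gars and Cars rose most (2.53 ± 0.17, 2.11 ± 0.19 and 2.20 ± 0.21). Where a call also needed an absolute log2 fold change of 1 and a mean of 5 RPM, 7 of the 20 were called, against 25.2% of all genes tested.

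The enzymes that use the substrates of these carriers moved as 9 rises and 5 falls of 26, or 53.8% called, against 42.8% of all genes tested. Glul, which makes glutamine, fell from 436, 380 and 271 RPM to 33, 25.3 and 43.2 RPM (log2 fold change -3.39 ± 0.26). Ass1, of arginine synthesis, rose from 10.7, 11.8 and 13.9 RPM to 167, 211 and 159 RPM (3.77 ± 0.22). Gclm, a subunit of the enzyme that starts glutathione synthesis from the cysteine that Slc7a11 supplies, rose from 6.84, 4.37 and 8.98 RPM to 31.2, 358 and 196 RPM (4.14 ± 0.75).

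Between Nedd4L-cKO and WT MuSCs, 1 of the 41 transporters tested was called, against 0.784% of all genes tested. It was Slc38a1, which fell. Its level was 98.4, 102 and 99.1 RPM in the WT MuSCs and 36, 36.7 and 49.5 RPM in the Nedd4L-cKO MuSCs, 2.45-fold lower (log2 fold change -1.29 ± 0.24 (SE), limma adjusted p = 0.0395). The WT libraries lay within a few RPM of each other, and the highest Nedd4L-cKO library was far below them. The call held in 7 of 14 alternatives, whose log2 fold changes ran from -1.43 to -1.21 and whose adjusted p ran from 0.0182 to 0.147. It was lost without WT 01, 02 or 03 or cKO 01 or 02 (adjusted p = 0.0920, 0.145, 0.0626, 0.0794 and 0.147) and without limma's trend and robust options (0.0701).

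**Figure D4:**
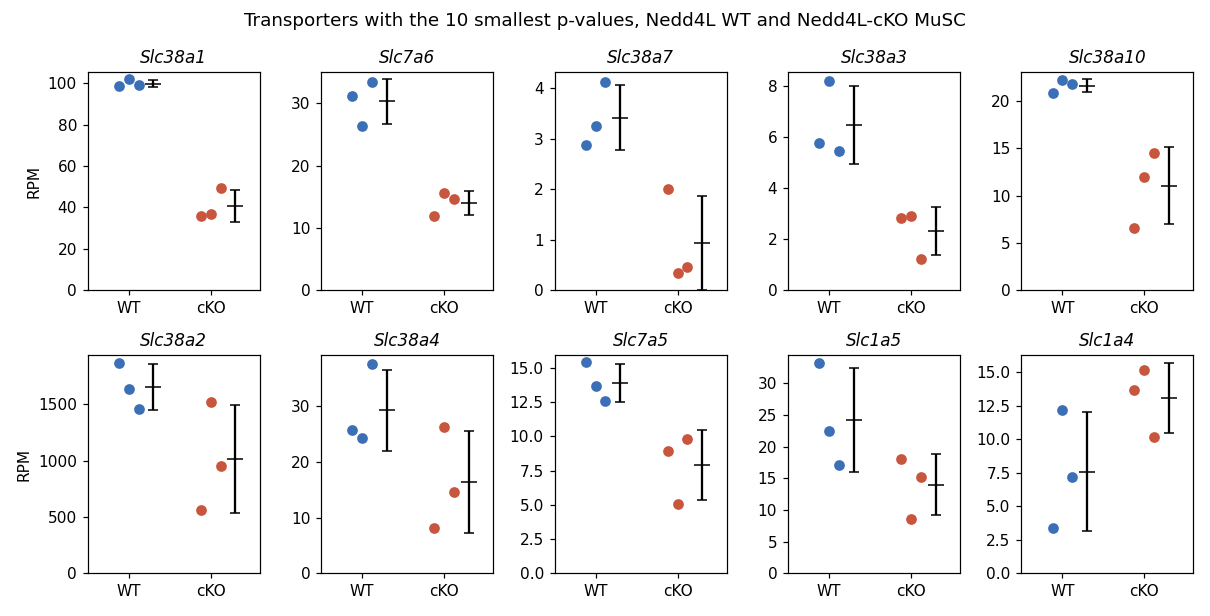
RPM of the 10 transporters with the smallest p in the genotype comparison, in each Nedd4L WT (blue) and Nedd4L-cKO (red) MuSC library, with mean and SD (n = 3) beside the points and every axis from 0. Slc38a1 lies at 98.4 to 102 RPM in WT and at 36 to 49.5 RPM in Nedd4L-cKO MuSCs, while the groups overlap for Slc38a2, Slc38a4, Slc1a5 and Slc1a4.

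At an unadjusted p under 0.05, 8 of the 41 were lower and 0 were higher in Nedd4L-cKO MuSCs, against 7.13% lower and 7.51% higher of all genes tested. The log2 fold change was below 0 for 29 of the 41, against 49.9% of all genes, with a median of -0.23 against 0.00. For 6 of the 41, all lower, the genotypes did not overlap, against 9.59% lower and 9.75% higher of all genes tested. With an added threshold of an absolute log2 fold change of 1 and a mean of 5 RPM, Slc38a1 was again the 1 called, against 0.653% of all genes. Apart from Slc38a1, no single one of these differences passed the adjusted threshold. With each library left out in turn, from 6 to 9 transporters were lower at that p and at most 1 was higher.

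Each of the 4 sodium-coupled Slc38 carriers of the plasma membrane was below an unadjusted p of 0.05, with a median log2 fold change of -1.06. Slc38a2, the most abundant, was at 1871, 1637 and 1462 RPM in WT and at 566, 1519 and 955 RPM in Nedd4L-cKO MuSCs (log2 fold change -0.82 ± 0.33, limma adjusted p = 0.286). Library 02 of the Nedd4L-cKO MuSCs was within the WT range, and without library 01, whose total was the highest of the table, the log2 fold change was -0.45. Slc38a3 had 5.75, 8.21 and 5.44 RPM against 2.83, 2.89 and 1.24 RPM (-1.19 ± 0.37, adjusted p = 0.177), without overlap. Slc38a4 had 25.8, 24.3 and 37.7 RPM against 8.11, 26.3 and 14.7 RPM (-0.92 ± 0.39, adjusted p = 0.308), with overlap. All 4 had log2 fold changes below 0 with each library left out in turn, and 2 to 4 of them, 2 without Nedd4L-cKO library 01, had an unadjusted p under 0.05.

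A pair of further Slc38 genes were among these 8. Slc38a7, which exports glutamine from lysosomes, was at 2.87, 3.26 and 4.12 RPM in WT and at 2.00, 0.339 and 0.466 RPM in Nedd4L-cKO MuSCs (log2 fold change -1.28 ± 0.38, limma adjusted p = 0.154). Slc38a10 was at 20.9, 22.2 and 21.8 RPM and at 6.58, 12 and 14.5 RPM (-0.97 ± 0.33, adjusted p = 0.208). In both the genotypes did not overlap. Slc38a6 and Slc38a9 lay the other way, at 227, 149 and 231 RPM against 217, 258 and 290 RPM and at 30.4, 18.4 and 25.0 RPM against 44.6, 21.9 and 31.6 RPM, with overlap in both.

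The remaining 2 of the 8 were light chains. Slc7a6 had 31.2, 26.4 and 33.4 RPM in WT and 11.9, 15.6 and 14.6 RPM in Nedd4L-cKO MuSCs, 2.16-fold lower (log2 fold change -1.06 ± 0.27, limma adjusted p = 0.105). Slc7a5 had 15.4, 13.7 and 12.6 RPM against 8.90, 5.03 and 9.80 RPM (-0.78 ± 0.33, adjusted p = 0.312). Neither gene overlapped between the genotypes and neither was called. Their heavy chain Slc3a2 was at 213, 180 and 148 RPM and at 233, 219 and 146 RPM, with a log2 fold change of 0.13 and a 95% confidence interval from -0.45 to 0.71. The level per kb of Slc3a2 was 3.89, 3.84 and 3.14 times that of the summed light chains in WT and 8.87, 8.74 and 4.89 times in Nedd4L-cKO MuSCs, without overlap.

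The ASC exchangers had the next smallest p-values, in opposite directions. Slc1a5 had 33.2, 22.4 and 17.1 RPM in WT and 18.1, 8.65 and 15.2 RPM in Nedd4L-cKO MuSCs (log2 fold change -0.76 ± 0.35, limma adjusted p = 0.349), and Slc1a4 had 3.42, 12.2 and 7.17 RPM and 13.7, 15.2 and 10.2 RPM (0.83 ± 0.41, adjusted p = 0.381). Both overlapped. Slc43a3, second to Slc38a2 in WT, was at 545, 732 and 612 RPM against 631, 893 and 442 RPM, with a log2 fold change of 0.01 and a 95% confidence interval from -0.61 to 0.63. Slc43a1 and Slc43a2 were at 68.6, 55.3 and 49.6 RPM against 36.5, 54.5 and 48.0 RPM and at 52.4, 48.2 and 39.9 RPM against 32.9, 22.5 and 48.8 RPM, with overlap in both.

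The carriers with large changes in myoblasts otherwise overlapped between the genotypes. Slc6a6 was at 85.3, 82.6 and 58.1 RPM in WT and at 39.4, 73.0 and 65.2 RPM in Nedd4L-cKO MuSCs (log2 fold change -0.37 ± 0.29), and Slc6a8 at 10.1, 6.04 and 12.3 RPM and at 6.57, 7.46 and 12.6 RPM. Slc7a1 was at 26.6, 19.8 and 14.2 RPM and at 10.8, 10.9 and 16.1 RPM (-0.62 ± 0.32, limma adjusted p = 0.410), and Slc7a11 at 2.43, 2.15 and 1.86 RPM and at 1.68, 0.975 and 2.28 RPM. All 5 cationic carriers had log2 fold changes below 0, with a median of -0.20, and none was called. Slc7a2 was at 42.2, 60.0 and 61.7 RPM against 47.9, 55.7 and 54.1 RPM (interval -0.59 to 0.52).

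**Figure D5:**
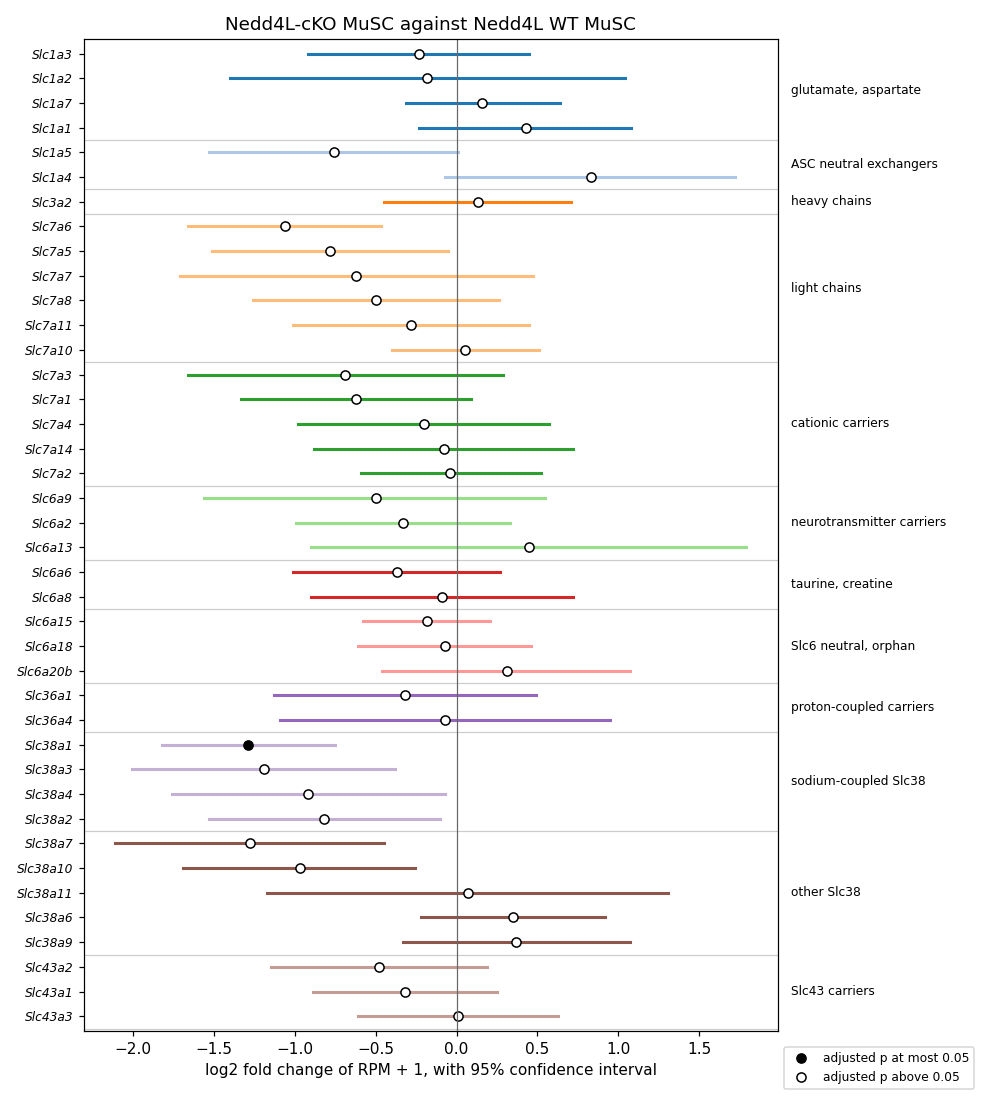
Log2 fold change of RPM + 1 between Nedd4L-cKO and WT MuSCs for the transporters tested and shown here, grouped by role, with 95% confidence intervals as bars; the filled point, Slc38a1, has an adjusted p of at most 0.05. The intervals of the 4 sodium-coupled Slc38 carriers lie left of 0, and those of most other transporters include 0.

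Marker sums of other cell types and states are given beside these values. Pericyte and smooth muscle markers (all 6 listed, each with a mean of at least 5 RPM) summed to between 1193 and 1932 RPM in WT and between 2185 and 3244 RPM in Nedd4L-cKO MuSCs, and myofiber markers to between 249 and 480 RPM and between 518 and 615 RPM. Neither pair of ranges overlapped, although none of these markers was called. Acta2 and Rgs5 gave most of the pericyte and smooth muscle sum. Rgs5 overlapped, at 280, 570 and 1034 RPM in WT and 355, 1270 and 1945 RPM in Nedd4L-cKO MuSCs. Pdgfrb, Kcnj8 and Notch3 overlapped too, while Acta2 and Myh11 did not. Acta2 was also at 1078 RPM or more in every MuSC and myoblast library of the other comparison. MuSC marker sums overlapped, at 3583 to 4918 RPM and 4065 to 4891 RPM, with 1 of the 8 markers called lower, and so did the sums of endothelial, blood, fibro-adipogenic and Schwann cell markers. Markers of cycling and committed myoblasts summed to between 171 and 858 RPM in WT and between 424 and 791 RPM in Nedd4L-cKO MuSCs, a sum to which Myog gave the most in the highest libraries, and 1 of the 8 was called higher. That marker was the mitotic cyclin Ccnb1, at 32.8, 11 and 9.93 RPM in WT and 91.6, 63.4 and 71.3 RPM in Nedd4L-cKO MuSCs (log2 fold change 2.20 ± 0.40, limma adjusted p = 0.0325). The cell cycle kinase Cdk1 (1.64 ± 0.37, adjusted p = 0.0727) and the topoisomerase Top2a (1.32 ± 0.43, adjusted p = 0.199) were not called but did not overlap between the genotypes either. The proliferation marker Mki67 overlapped, at 63.5, 16.1 and 12.7 RPM in WT and 26.7, 45.6 and 75.1 RPM in Nedd4L-cKO MuSCs (0.90 ± 0.54, adjusted p = 0.474). Myod1, Myog, Myh3 and Myl4 also overlapped, and Myl4 had a log2 fold change below 0 (-0.52 ± 0.40). The part of these cells and of cycling in the lower Slc38 levels was not tested.

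The amino acid response list differed from the transporters in direction. Of its 29 genes, 1 was called and 8 had an unadjusted p under 0.05, all higher in Nedd4L-cKO MuSCs, against 7.51% of all genes tested that were higher at that p. The called gene was Nupr1, a stress-induced chromatin protein, at 106, 69.7 and 110 RPM in WT and 386, 384 and 198 RPM in Nedd4L-cKO MuSCs (log2 fold change 1.71 ± 0.31, limma adjusted p = 0.0342). Atf4 was at 131, 119 and 113 RPM and at 201, 196 and 190 RPM (0.69 ± 0.23, adjusted p = 0.195), without overlap and without a call. The synthetases and the substrate enzymes had no called gene, and at an unadjusted p under 0.05 there were 2 of 20 and 8 of 27, against 14.6% of all genes tested.

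Set side by side, 38 transporters were tested in both tables, whose libraries come from different mice. Of the 9 called lower in myoblasts, 8 had a log2 fold change below 0 in Nedd4L-cKO MuSCs, and so had 9 of the 12 called higher in myoblasts. So had 10 of the 17 not called in myoblasts, and 27 of all 38 (71.1%). Over all 14343 genes tested in both tables, 50.5% were below 0 in Nedd4L-cKO MuSCs. This share was 50.1% of the genes called lower in myoblasts and 54.0% of those called higher. The sign in the Nedd4L-cKO MuSCs therefore did not separate the transporters that fell in myoblasts from those that rose. Slc38a1 was called lower in both comparisons, while Slc7a5 and Slc7a6 rose in myoblasts and had log2 fold changes below 0 in Nedd4L-cKO MuSCs. Slc43a3 had a 21.2-fold fall in myoblasts and a log2 fold change near 0 in Nedd4L-cKO MuSCs.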

How the data were processed

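RNA of 12 libraries of 1000 cells was read as single ends of 75 bases. According to the study's methods, the authors ran Kallisto 0.46.1 against GENCODE M28 (basic set), went to gene level by tximport, and normalized in DESeq2. What was deposited is therefore a signal, namely normalized counts, in 1 table per comparison, and the tables were normalized separately. Fold changes, p-values and RPM supplied by the authors were left aside. In each library only 44.4% to 62.5% of low values were whole multiples of a fitted step (the value 1 read would have), so reads were not recovered and no count model was run.

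Libraries were grouped by their labels, which give no batch. RPM were taken relative to the mean of the 6 totals in a table, and log2(RPM + 1) was tested with limma 3.58.1 in R 4.3.3 (lmFit, eBayes with trend and robust options, group as the only term) after a filter of 10 normalized counts in 3 libraries, with Benjamini-Hochberg adjustment over all tested genes. The script was tested on simulated data. Myoblast and MuSC libraries of a number come from the same mouse. Deviations of these pairs from their group means correlated at -0.0314, -0.00502 and 0.0180. A fit with the mouse as a block is given where it changes a call. Shared numbers of WT and Nedd4L-cKO libraries mark different mice. Exonic lengths and positions came from GENCODE M39 on GRCm39, the build of the authors' annotation, and promoters from RefSeq on GRCm38.p6.

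The transporters, roles, lists and markers were chosen with earlier results of these data known. Values in every library are given for transporters called in the genotype comparison or among its 10 smallest p, for the largest called changes between myoblasts and MuSCs (up to 12 in each direction with a mean of at least 5 RPM in 1 group), for 10 carriers fixed by name and for the highest levels per kb. Of the other lists, the genes called in the genotype comparison and the 3 largest called changes in myoblasts were to be named. Atf4, Chac1, Rptor, the cell cycle and myoblast markers and other transporters were named after their values were seen. So were the genes of the amino acid response list that fell in myoblasts, and Castor1, Fnip1, Rragc and Mios between the genotypes. Some single genes are not reported here, although they count in the totals. Figures were drawn with Python 3.11.15 and matplotlib 3.10.9.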

Additional observations from a re-analysis of the deposited data

How the results depend on the processing

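Alternatives were TMM, RLE and own-total scaling, no filter or 10 normalized counts in all 6 libraries, a pseudocount of 0.1, limma without trend and robust options, calls that also needed a mean of 5 RPM and a log2 fold change of 1 or more in size, the replicate number as a block, and each library left out. Between myoblasts and MuSCs the count of 23 called transporters ran from 17 to 23, and from 18 to 22 with a library left out. With the mouse as a block it was 22, and Slc38a1 was the only call lost. Between the genotypes the count of 1 became 0 without trend and robust options and with the replicate block, where Slc38a1 had an adjusted p of 0.0952, and ran from 0 to 1 with a library left out. Same-numbered libraries there share only a number, and their deviations correlated at 0.0192, -0.0232 and -0.181. Of 333 log2 fold changes of named transporters under these alternatives, between myoblasts and MuSCs, 26 lost a call and 0 changed sign. Both the 333 and the 285 between the genotypes include the added fold and RPM thresholds. That alternative leaves the log2 fold change as it was, so its sign could not change. Between myoblasts and MuSCs it took the call from Slc38a1, Slc38a3, Slc3a2, Slc6a13, Slc6a17 and Slc6a19. Of 285 between the genotypes, 7 lost the call, all of Slc38a1, and 10 changed sign in 4 transporters that were not called. Slc43a3 changed sign under own-total scaling (-0.12), and with a library left out it ran from -0.24 to 0.26. With a library left out Slc3a2 ran from -0.00 to 0.34, Slc6a8 from -0.35 to 0.11 and Slc7a2 from -0.21 to 0.06. The median of all genes moved to 0.141 between myoblasts and MuSCs and to -0.091 between the genotypes under own-total scaling. The cause was not tested. Without read depth, no counting error can be given for genes under 1 RPM.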

Other observations

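The genes of the mTORC1 amino acid sensing step, fixed as a list of 33, moved in both directions between myoblasts and MuSCs, with 8 higher and 10 lower, against 22.2% higher and 20.6% lower of all genes tested. Sesn1, a leucine-responsive inhibitor of the pathway, fell from 179, 142 and 165 RPM to 19.5, 18.2 and 18.2 RPM (log2 fold change -3.05 ± 0.20, limma adjusted p = 9.49e-06). Castor1, an arginine sensor, fell from 11.5, 19.0 and 17.3 RPM to 2.38, 1.71 and 0.910 RPM (-2.68 ± 0.36), and Rragb, a Rag GTPase, from 18.0, 15.1 and 15.7 RPM to 3.53, 4.00 and 1.99 RPM (-2.08 ± 0.32). Rptor, the subunit that recruits substrates, rose from 10.8, 4.34 and 11.7 RPM to 19.5, 42.8 and 45.8 RPM. None of the 33 was called between the genotypes with limma, where 2 were higher and 6 lower at an unadjusted p under 0.05, against 7.51% and 7.13% of all genes tested. The smallest p-values of the list were those of Fnip1, Rragc and Mios, all lower in Nedd4L-cKO MuSCs without overlap. Their log2 fold changes were -0.94 ± 0.26, -0.89 ± 0.25 and -0.96 ± 0.29 (limma adjusted p = 0.136, 0.138 and 0.159). Castor1 went the other way, at 8.46, 5.86 and 8.50 RPM in WT and at 19.1, 15.6 and 13.3 RPM in Nedd4L-cKO MuSCs, without overlap (0.98 ± 0.31, limma adjusted p = 0.188).

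The letters CACGTG, the E-box bound by several helix-loop-helix factors, were searched on both strands of the same promoters. They were in a promoter of 6 of the 33 transporters that had one, or 18.2%, and in 8.09% of all genes. Those 6 were Slc1a7, Slc36a1, Slc38a7, Slc43a1, Slc6a3 and Slc7a14.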
